A study of Mus musculus with 4 samples.

Results

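The 44 genes described here encode plasma proteins of complement and of blood coagulation, 21 of complement and 23 of coagulation and fibrinolysis. They were chosen by name and function, and each name matched 1 row of a deposited table of 22079 genes. Values are FPKM, fragments counted per unit of transcript length and of sequenced fragments, which allow levels of different genes to be compared per length. Each of the 44 averaged 1 FPKM or more across the libraries, the condition for testing, as did 10407 genes in all.

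The libraries are messenger RNA from primary hepatocytes, the main secretory cells of the liver, of C57BL/6 mice, which the series describes as males matched in age; the labels give 8 weeks. WT is wild type and KO is Prom1-/-, a mouse lacking the membrane glycoprotein prominin 1, with 2 biological replicates of each (WT 1, WT 2, KO 1 and KO 2). Cells of both genotypes attached for 4 hours in 199 medium with dexamethasone (a glucocorticoid, at 10 nM), HEPES (23 mM) and FBS (10%), and then stayed overnight without serum. The labels do not give the design of the Prom1 allele or the cells in which it is deleted, and the culture is a mix of what the liver isolation yields. The comparison asks how hepatocyte transcripts differ without Prom1.

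Complement is a cascade of plasma proteases that marks and lyses microbes. The classical and lectin branches start on bound antibody or sugars and cleave C4 and C2, the branches meet at C3, and the terminal components assemble into a membrane pore. Coagulation is a second protease cascade that ends with thrombin cutting fibrinogen into fibrin, and fibrinolysis removes the clot through plasmin. Hepatocytes secrete most proteins of both cascades, and several of them, fibrinogen and C3 among them, are acute phase proteins whose genes respond to inflammatory cytokines.

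Prom1 had 0.571 and 1.22 FPKM in the WT libraries against 0.0458 FPKM in KO 2 and a listed 0 in KO 1, so its order matched the labels. Its log2(FPKM + 1) differed by -0.87 (SE 0.19) between KO and WT, with an unadjusted limma p of 0.00935 and an adjusted p of 0.755 over 15152 genes. The libraries had 10327 to 10424 genes at 1 FPKM or more. Depth can only be estimated roughly from the smallest steps of the values, at 15400000 to 19900000 fragments for an assumed fragment of 200 bases. Hepatocyte markers were abundant, with Apoa1 between 5505 and 6228 FPKM, although Alb was listed at 0 in WT 2 and at 25551 FPKM or more in the other libraries, so a 0 in this table can be a failed estimate. No member was listed at 0 in any library.

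No complement or coagulation transcript was called different between the genotypes. Of the 44 members, 30 were at a lower level in KO (68.2%, beside 50.3% of all genes) and 14 at a higher one, with a median difference of -0.067 on the log2(FPKM + 1) scale, beside a median of -0.0011 over all genes tested. No member passed limma's test across all genes (lowest adjusted p = 0.541), nor did any other gene (0% of 10407). At an unadjusted limma p under 0.05 there was 1 member, Cpb2, or 2.27% of the list, beside 7.29% of all genes. The genotypes did not overlap for 6 members, or 13.6%, beside 38.1% of all genes: KO was the lower throughout for 5 (11.4%, beside 19.8%) and the higher for 1 (2.27%, beside 18.3%). The 95% limma interval of the difference lay within 1 log2 unit of 0 for 39 members and within 0.5 log2 units for 16. On simulated data the fit recovered 1.64% of genes changed by 0.5 (log2) and 57.8% of those changed by 1. The simulated spread was drawn around the spread that limma fitted over all genes at each gene's level. The members' intervals were wider than those of all genes (median half-width 0.43 log2 units, beside 0.33 over all genes). These shares therefore need not hold for the members.

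The sign of the list's median rested on single libraries. The median was -0.17 without WT 1 and -0.23 without KO 2, but 0.03 without WT 2 and 0.10 without KO 1. The members with an unadjusted limma p under 0.05 numbered 5 without WT 1 (beside 7.56% of all genes), 1 without WT 2 (3.06%), 6 without KO 1 (7.82%) and 12 without KO 2 (11.8%). With the replicate number in the fit they numbered 11 (beside 10.1%), none past the adjusted threshold. Differences between the 2 libraries of a genotype are given beside those between genotypes, which are differences of means of 2 and so vary less. The median absolute difference was 0.14 between genotypes, 0.21 between WT 2 and WT 1 and 0.38 between KO 2 and KO 1, where all genes tested had 0.12, 0.13 and 0.16. For 28 of the 44 members the genotype difference was smaller than both differences within a genotype. The share over all genes was not counted, so this count does not set the members apart.

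**Figure D1:**
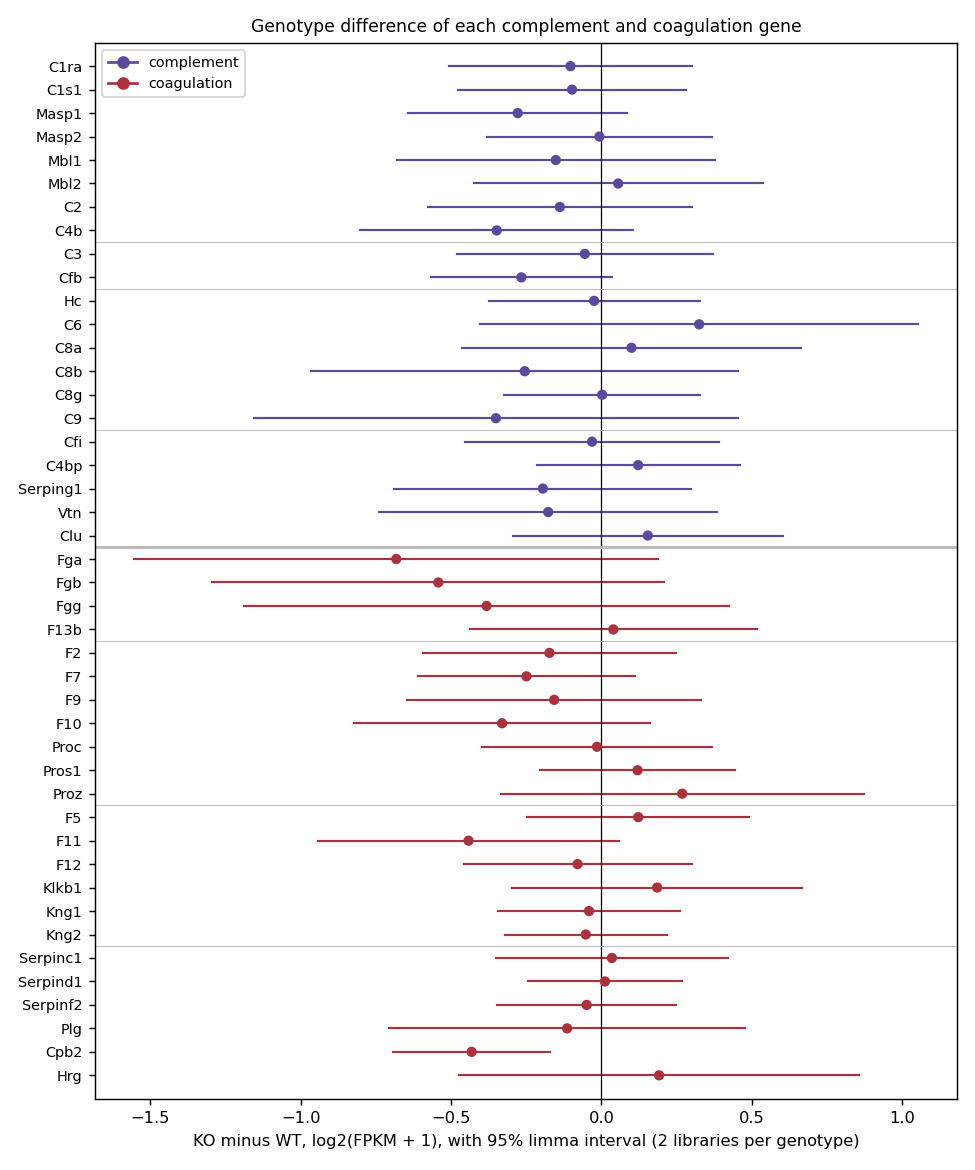
Genotype difference (KO minus WT, log2(FPKM + 1), horizontal axis) of each of 21 complement and 23 coagulation genes, with points for the limma estimate, bars for its 95% interval and lines between functional groups (2 libraries per genotype). The interval of Cpb2 alone lies wholly on 1 side of 0, and Fga has the lowest estimate, -0.68, with an interval that includes 0.

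Most members were higher in WT 2 than in WT 1 and higher in KO 2 than in KO 1. WT 2 exceeded WT 1 for 37 members (median 0.20, log2) and KO 2 exceeded KO 1 for 43 (median 0.38), while over all genes tested 49.7% and 53.2% were higher in that direction, with medians of -0.0014 and 0.020. The number 2 library was the higher in both genotypes for 37 members, or 84.1%, beside 29.5% of all genes. Both libraries numbered 2 lay above both numbered 1 for 33 members (75.0%, beside 18.5% of all genes) and below them for 1, Pros1 (beside 16.7%; it was also the 1 member lower in library 2 in both genotypes, beside 26.5%). KO 1 was the lowest of the 4 libraries for 39 members, or 88.6%, beside 30.8% of all genes. The highest library was WT 2 for 22 members (beside 27.7% of all genes) and KO 2 for 20 (beside 26.3%). These are descriptions of 1 library against 1, with no test, and the labels do not say that a shared number marks a shared animal, isolation or day.

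The gap between KO 1 and KO 2 depended on the scale, for all genes as for the members. Rescaling by the median ratio left the members' median at 0.36, with KO 2 above KO 1 for 43 (beside 49.5% of all genes). The library totals include Alb, listed at 0 in WT 2, and rescaling to totals without it was not run. Rescaling all libraries to a common total lowered the median of all genes in KO 2 relative to KO 1 by 0.12, to -0.10. KO 2 then exceeded KO 1 for 37 members (median 0.25) beside 32.2% of all genes, the number 2 library was the higher in both genotypes for 33 members beside 18.6% of all genes, and KO 1 was lowest for 29 members beside 18.3%. On that scale 9 members did not overlap between genotypes (beside 36.1% of all genes), 8 with KO lower (beside 20.1%) and 1 with KO higher (beside 16.0%). There 4 members, all lower in KO, had an unadjusted limma p under 0.05 (9.09%, beside 6.73% of all genes).

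**Figure D2:**
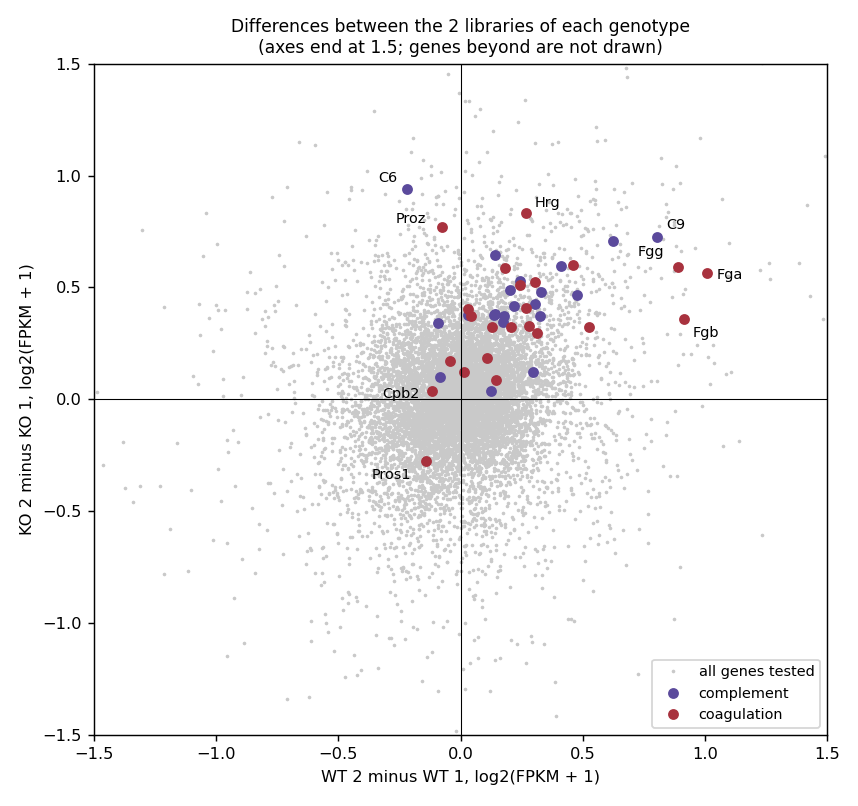
Difference between the libraries of each genotype, WT 2 minus WT 1 on the horizontal and KO 2 minus KO 1 on the vertical axis, both as log2(FPKM + 1), for all genes tested (grey) and for the complement and coagulation genes (coloured). Of the 44 members 37 lie in the upper right part, which holds 29.5% of all genes tested, and Pros1 is the 1 member in the lower left.

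Markers of other cell types also differed between the libraries, not all in the same order. The 7 sinusoidal endothelial markers, all tested, summed to 47.3 and 46.3 FPKM in WT 1 and WT 2, 63.6 FPKM in KO 1 and 32.3 FPKM in KO 2, so the sum was highest in KO 1, the library that was lowest for 39 members, and lowest in KO 2. Of these 7 markers, 5 were highest in KO 1, and Pecam1 and Cdh5 in WT 2. The 6 stellate cell markers, 2 of them tested, summed to 13.6, 15.8, 23.2 and 10.4 FPKM in the same order. The largest part was Dcn (8.31, 8.39, 17.5 and 7.02 FPKM). Reln, the other marker tested, stood at 3.47, 5.65, 2.79 and 2.33 FPKM, with KO 1 below both WT libraries. The 7 Kupffer cell markers, 6 of them tested, summed to 367 and 361 FPKM in WT against 410 and 482 FPKM in KO, nearly all of it Cd68. All 6 tested Kupffer markers had a higher value in KO (median 0.37, log2), 4 of them without overlap between genotypes (KO above WT for 18.3% of all genes), and none passed the test. The scavenger receptor gene Marco had 2.54 and 3.14 FPKM in WT against 6.28 and 5.70 FPKM in KO (log2 difference 0.87, adjusted p = 0.470 by limma), and Cd5l had 2.81 and 2.28 FPKM in WT against 4.82 and 4.62 FPKM in KO (0.70, adjusted p = 0.519 by limma). Clec4f (0.022) and Csf1r (0.047) differed little and overlapped between genotypes. Cholangiocyte markers summed to 23.1 to 36.9 FPKM and platelet markers to 3.86 to 5.89 FPKM, with the platelet genes Ppbp and Gp9 listed at 0 in all libraries, as were the lymphocyte genes Cd79a and Nkg7 and the neutrophil genes S100a9 and Retnlg. Of 7 hepatocyte markers tested, Alb with its listed 0 in WT 2 among them, 5 were higher in WT 2 than WT 1 and 5 in KO 2 than KO 1. Their median level relative to each gene's mean was 0.0062, 0.098, -0.23 and 0.19 (log2) in WT 1, WT 2, KO 1 and KO 2. The median was lowest in KO 1, but KO 1 was the lowest library for only 4 of these 7 markers. The part of cell mixture in the members' values was not tested, and in bulk libraries fewer cells of a type cannot be told apart from less RNA per cell.

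**Figure D3:**
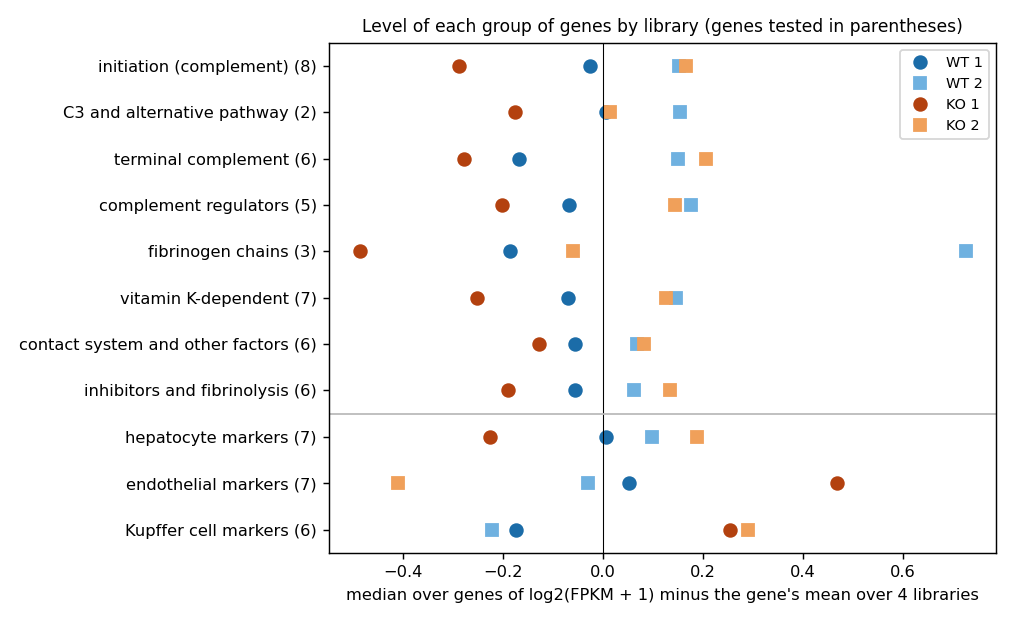
Median over the genes of each group of log2(FPKM + 1) minus the gene's mean over the 4 libraries (horizontal axis), for 8 groups of complement and coagulation genes (the fibrinogen group is the 3 chains, without F13b) and 3 sets of cell type markers, with a symbol per library. KO 1 is lowest in these 8 groups (from -0.49 for the fibrinogen chains to -0.13 for the contact system and other factors) and highest for the endothelial markers (0.47).

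The members covered a wide range of levels. Clu, the chaperone clusterin, which also restrains the terminal complement pore, had the highest mean (3856 FPKM), followed by C3 (1140 FPKM), the terminal complement and adhesion protein gene Vtn (785 FPKM) and the antithrombin gene Serpinc1 (748 FPKM). The plasma kallikrein gene Klkb1 had the lowest (3.94 FPKM), and 24 members had a mean of at least 100 FPKM. Together the members took 2.56% and 3.003% of the summed FPKM in WT 1 and WT 2, and 2.47% and 2.74% in KO 1 and KO 2. The WT 2 sum lacks Alb, which was listed at 0 there and at 25551 FPKM or more in the other libraries. Its share therefore cannot be compared directly with theirs. The highest library was under 2-fold above the lowest for 40 of the 44.

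**Figure D4:**
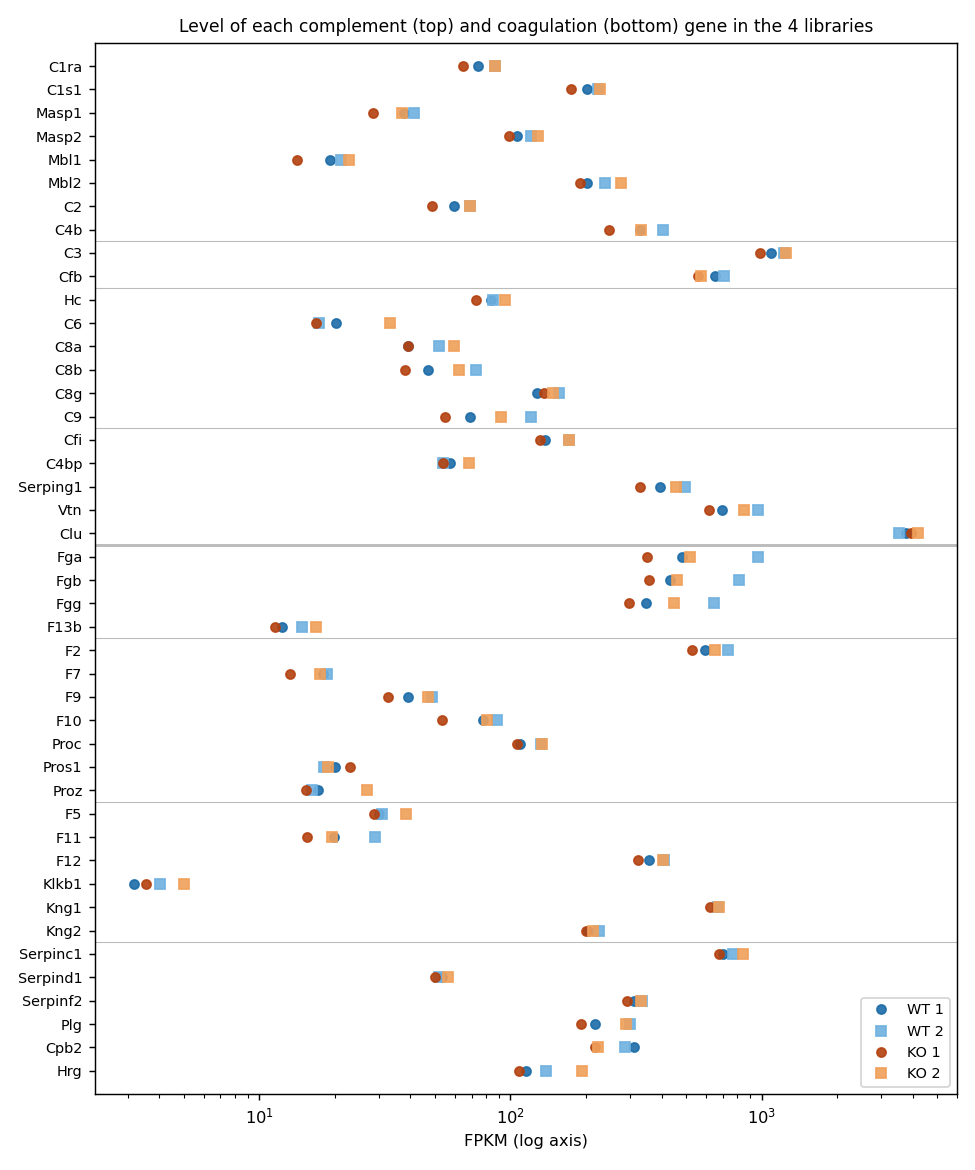
Level of each member in the 4 libraries (FPKM, log axis), complement above and coagulation below the thick line, with thin lines between functional groups. Symbols of the 4 libraries lie within 2-fold of each other for 40 members, and circles (library 1) lie to the left of squares (library 2) in both genotypes for 37.

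Among the proteins that start the classical and lectin branches, 7 of 8 had a lower value in KO and none passed the test (median -0.12). C4b, the complement component C4 that C1s and the MASP proteases cleave, stood at 328 and 405 FPKM in WT against 247 and 332 FPKM in KO. KO 1 was below and WT 2 above the rest, and KO 2 reached the level of WT 1, so the genotypes overlapped (log2 difference -0.35, SE 0.18, adjusted p = 0.730 by limma). The difference was -0.13 without KO 1, -0.19 without WT 2 and -0.56 without KO 2. Masp1, a protease of the lectin branch, stood at 37.6 and 41.4 FPKM in WT against 28.3 and 37.0 FPKM in KO. Its KO libraries lay just below its WT libraries, with a log2 difference of -0.28 (SE 0.15, adjusted p = 0.731 by limma) that was -0.090 without KO 1 and -0.47 without KO 2.

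The other initiators overlapped between genotypes. Masp2, which cleaves C4 and C2 in the lectin branch, differed by -0.0064 (log2), and the mannose-binding lectins that carry it differed by -0.15 (Mbl1) and 0.056 (Mbl2). Mbl2 was the more abundant lectin, at 190 to 274 FPKM against 14.2 to 22.7 FPKM for Mbl1. C1ra and C1s1, the proteases of the C1 complex, differed by -0.10 and -0.097, and C2, the protease of the C3 convertase, by -0.14. The neighbouring genes C1ra and C1s1 lie within 30.0 kb on chromosome 6 (124512405 to 124542359, mm10, GENCODE M21) and were both lowest in KO 1 (64.6 and 174 FPKM) and close in WT 2 and KO 2 (86.7 and 86.6 FPKM for C1ra, 223 and 227 FPKM for C1s1). Their close copies C1rb and C1s2 stayed under 1 FPKM in every library, while C4a, the close copy of C4b, was not analysed here.

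C3, on which all branches converge, stood at 1090 and 1228 FPKM in WT against 988 and 1255 FPKM in KO (log2 difference -0.055, SE 0.17, adjusted p = 0.966 by limma). Its lowest and highest values were both from KO, so the genotypes overlapped fully. Cfb, the factor B protease of the alternative branch, did not overlap: it stood at 652 and 711 FPKM in WT against 559 and 573 FPKM in KO (log2 difference -0.27, SE 0.12, unadjusted p = 0.0729, adjusted p = 0.693 by limma). Its libraries within a genotype differed by less (0.12 and 0.036, log2) than the genotypes did. Cfb and C2 lie side by side on chromosome 17 within a stretch of 169.9 kb that also holds C4b (34728380 to 34898265), and both overlap the gene model Gm20547 on the same strand, so their fragments may be split uncertainly.

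The terminal components had the largest median gap between the KO libraries of the 8 groups (0.65, log2) and were divided in direction, with 3 of 6 lower in KO (median -0.011). C9, which polymerises into the pore, stood at 68.7 and 121 FPKM in WT against 55.1 and 91.9 FPKM in KO. Both libraries numbered 2 were higher, by 1.76-fold in WT and 1.67-fold in KO, and the genotype difference was -0.35 (log2, SE 0.33, adjusted p = 0.828 by limma). C8b, the beta chain of C8, had the same order: 46.8 and 72.6 FPKM in WT against 37.9 and 62.5 FPKM in KO (log2 difference -0.25). Its neighbour on chromosome 4, the alpha chain gene C8a, stood at 39.0 and 52.1 FPKM in WT against 39.2 and 59.8 FPKM in KO (0.10), so the 2 chains also split by library number and not by genotype. The gamma chain gene C8g, which lies on chromosome 2 and overlaps Fbxw5 on the opposite strand, had a higher level (127 and 157 FPKM in WT, 136 and 148 FPKM in KO) and a log2 difference of 0.0028.

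C6, which binds C5b to start the pore, followed another pattern. It stood at 20.3 and 17.3 FPKM in WT and 16.8 FPKM in KO 1, but at 33.2 FPKM in KO 2. The genotype difference of 0.33 (log2, SE 0.30, adjusted p = 0.828 by limma) thus came from KO 2 alone, and was -0.14 without it. Hc, the gene of C5, differed by -0.024.

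The soluble regulators had overlapping libraries with 1 exception. Clu stood at 3758 and 3540 FPKM in WT against 3921 and 4205 FPKM in KO, so both KO libraries were higher, with a log2 difference of 0.15 (SE 0.18, adjusted p = 0.874 by limma). It was the 1 member with KO above WT throughout, beside 18.3% of all genes tested. Serping1, the C1 inhibitor, which also blocks kallikrein, differed by -0.19 and Vtn by -0.18, and both were higher in the libraries numbered 2. Cfi, the factor I protease that cuts C3b and C4b, differed by -0.031, and C4bp, a chain of its cofactor C4b-binding protein, by 0.12. Of 23 further complement genes fixed as a list, 12 were tested: 8 were lower and 4 higher in KO with a median of -0.038, and none passed the test. The membrane regulator Cr1l stood at 54.7 and 50.3 FPKM in WT against 60.5 and 59.9 FPKM in KO (0.20). C1qc, a chain of the macrophage product C1q, differed by -0.15 and Cfhr2 by -0.14.

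Of all members, Fga and Fgb had the largest genotype differences, and the 3 fibrinogen chains had the largest gaps between the WT libraries. Fga, the alpha chain, stood at 482 and 972 FPKM in WT against 351 and 518 FPKM in KO. Fgb, the beta chain, stood at 430 and 811 FPKM in WT against 358 and 459 FPKM in KO. Fgg, the gamma chain, stood at 348 and 644 FPKM in WT against 296 and 446 FPKM in KO. For each chain KO 1 was lowest and WT 2 highest, and KO 2 lay above WT 1, so the genotypes overlapped. WT 2 exceeded WT 1 by 2.01-fold, 1.88-fold and 1.85-fold for the alpha, beta and gamma chains, and KO 2 exceeded KO 1 by 1.48-fold, 1.28-fold and 1.51-fold. The genotype differences were -0.68 (SE 0.35), -0.54 (SE 0.31) and -0.38 (SE 0.33) on the log2 scale, with adjusted p of 0.724, 0.743 and 0.823 by limma. The sizes depended on single libraries. Without WT 2 the differences of the alpha, beta and gamma chains were -0.18, -0.086 and 0.062, and without KO 1 they were -0.40, -0.36 and -0.086. Without WT 1 they were -1.19, -0.998 and -0.83, and without KO 2 they were -0.96, -0.72 and -0.68. F13b, the carrier subunit of the fibrin-crosslinking factor XIII, was low and overlapped between genotypes (11.5 to 16.8 FPKM, log2 difference 0.040).

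**Figure D5:**
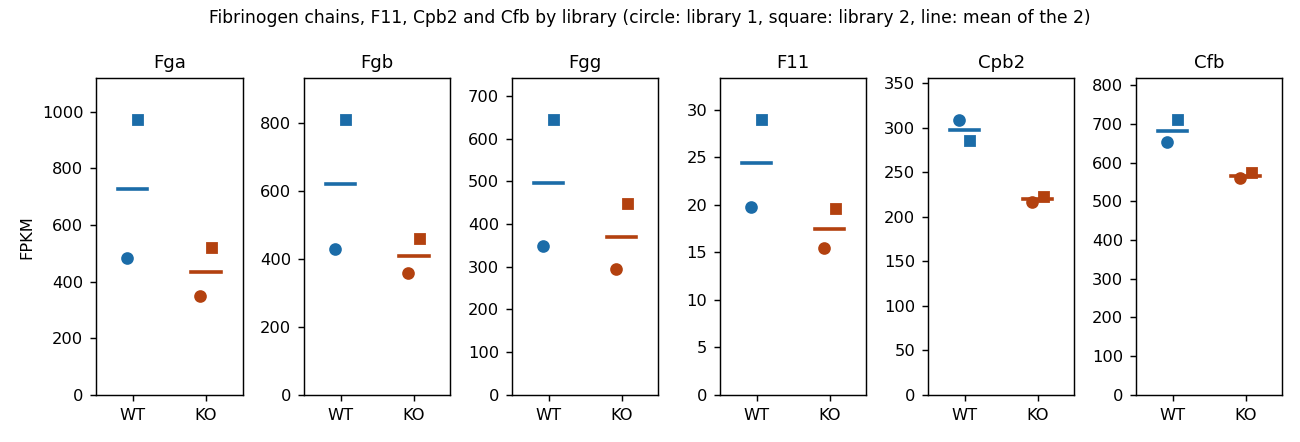
FPKM of the 3 fibrinogen chains, F11, Cpb2 and Cfb by genotype (vertical axes start at 0), with a circle for library 1, a square for library 2 and a line for the mean of the 2. In the fibrinogen chains WT 2 stands far above the other 3 libraries, whereas both WT libraries of Cpb2, Cfb and, narrowly, F11 lie above both KO libraries.

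The 3 fibrinogen genes form a cluster of 42.1 kb on chromosome 3 (83007724 to 83049863, mm10), with Fgb on the minus strand and the others on the plus strand, and their chains are secreted as 1 protein. Because they moved together across the libraries, the sequences before their start sites are shown, from RefSeq (GRCm38.p6), 5′ to 3′ along each gene. Capitals mark matches to the STAT motif TTCNNNGAA or to the core of the interleukin-6 response element, CTGGGAA, on either strand. The windows are chr3:83025903-83026075 (plus strand) for Fga, which stops at the start of the gene in GENCODE, chr3:83049864-83050113 (minus strand) for Fgb and chr3:83007474-83007723 (plus strand) for Fgg.
Fga: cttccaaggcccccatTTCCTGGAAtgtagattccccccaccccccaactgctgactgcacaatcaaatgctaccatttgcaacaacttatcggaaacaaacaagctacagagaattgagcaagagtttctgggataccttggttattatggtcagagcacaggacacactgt
Fgb: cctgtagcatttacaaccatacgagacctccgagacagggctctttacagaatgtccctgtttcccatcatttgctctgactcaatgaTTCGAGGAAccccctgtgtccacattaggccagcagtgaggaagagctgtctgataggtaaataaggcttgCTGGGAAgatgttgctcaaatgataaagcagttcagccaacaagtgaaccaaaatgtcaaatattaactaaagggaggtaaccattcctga
Fgg: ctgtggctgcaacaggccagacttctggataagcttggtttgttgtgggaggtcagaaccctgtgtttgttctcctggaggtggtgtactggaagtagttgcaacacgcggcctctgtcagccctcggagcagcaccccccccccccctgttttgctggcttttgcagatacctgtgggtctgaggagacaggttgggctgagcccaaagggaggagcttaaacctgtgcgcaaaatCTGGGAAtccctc
Fga holds a STAT match, Fgg an interleukin-6 core match 13 to 7 bases before its start, and Fgb has both. Promoter windows were found for 34 of the 44 members. In the 250 bases before the start, the STAT motif was present in 6 of these 34 (17.6%; C8a, F9, Fga, Fgb, Masp2 and Pros1), beside 8.13% of 27025 genes, and the interleukin-6 core in 5 (14.7%; C1ra, F9, Fgb, Fgg and Masp2), beside 10.4%. In F9 and Masp2 the matches of both motifs overlap. Exact matches to a palindromic HNF1 motif, to TTGCGCAA (C/EBP), to CAAAGTCCA (HNF4) and to a consensus NF-kappa-B motif were found in none of the 34 and in 0.0111%, 0.185%, 0.451% and 0.159% of all genes. A match describes letters in the window, not a bound site.

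Of the 7 vitamin K-dependent proteins, which need a carboxylated domain to bind membranes, 5 had lower values in KO and none passed the test (median -0.16). F2, prothrombin, was the most abundant, at 594 and 737 FPKM in WT against 529 and 650 FPKM in KO (log2 difference -0.17, SE 0.17, adjusted p = 0.838 by limma). That difference was -0.017 without WT 2, -0.025 without KO 1, -0.32 without KO 2 and -0.33 without WT 1. F10, the factor X that activates prothrombin, stood at 77.7 and 88.4 FPKM in WT against 53.5 and 80.7 FPKM in KO. KO 1 alone stood apart, and the log2 difference of -0.33 (SE 0.20, adjusted p = 0.760 by limma) was -0.038 without it and -0.62 without KO 2. F7, the partner of tissue factor, stood at 18.0 and 18.6 FPKM in WT against 13.3 and 17.4 FPKM in KO, without overlap (-0.25, SE 0.15, adjusted p = 0.758 by limma), and its difference was -0.063 without KO 1 and -0.44 without KO 2.

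Proz, protein Z, the cofactor of a factor X inhibitor, went the other way. It stood at 17.2 and 16.3 FPKM in WT, 15.3 FPKM in KO 1 and 26.9 FPKM in KO 2, so its difference of 0.27 (log2, SE 0.25, adjusted p = 0.828 by limma) rested on KO 2 and was -0.12 without it. F7, F10 and Proz are neighbours within 49.99 kb on chromosome 8 (13026034 to 13076026), and their values did not share 1 order across the libraries. F9, the factor deficient in haemophilia B, differed by -0.16 and Proc, the anticoagulant protein C, by -0.014. Pros1, protein S, the cofactor of protein C, was the member that ran against the rest between libraries of a genotype: 20.1 and 18.1 FPKM in WT against 23.0 and 18.8 FPKM in KO (0.12). KO 1, the lowest library for 39 members, was its highest.

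In the contact system and among the other factors, 4 of 6 had lower values in KO (median -0.046). F11, which links the contact system to factor IX, stood at 19.8 and 28.9 FPKM in WT against 15.4 and 19.6 FPKM in KO. WT 2 stood highest and KO 2 lay just under WT 1, so the genotypes did not overlap (log2 difference -0.44, SE 0.20, unadjusted p = 0.0738, adjusted p = 0.694 by limma), and the difference was -0.18 without WT 2, -0.28 without KO 1 and -0.70 without WT 1. Klkb1, its neighbour on chromosome 8, stood at 3.18 and 4.03 FPKM in WT against 3.53 and 5.01 FPKM in KO (0.19), and it overlaps the gene model Gm45753 on the same strand. The kininogen genes varied little: Kng1 stood at 664 and 671 FPKM in WT against 622 and 677 FPKM in KO (-0.041), and its close copy Kng2 at 203 and 225 FPKM in WT against 200.01 and 212 FPKM in KO (-0.052). F12, which starts contact activation, differed by -0.079 and F5, the cofactor of factor X, by 0.12.

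Of the inhibitors and the genes of fibrinolysis, 3 of 6 had lower values in KO (median -0.018). Cpb2, a carboxypeptidase that trims fibrin and slows its breakdown, stood at 309 and 285 FPKM in WT against 217 and 223 FPKM in KO. Both KO libraries were lower by more than the libraries of a genotype differed, and KO 1 and KO 2 lay close together. The log2 difference was -0.43 (SE 0.11, unadjusted p = 0.0070, adjusted p = 0.541 by limma). No other member had as low a p. Leaving out each library in turn moved the difference between -0.49 and -0.37. Cpb2 overlaps the gene models Gm44482 and Gm18147 on the same strand, so its fragments may be split uncertainly. Serpinc1, antithrombin, stood at 704 and 770 FPKM in WT against 674 and 844 FPKM in KO (0.035), and Serpind1, heparin cofactor II, differed by 0.012. Plg, plasminogen, differed by -0.11, its inhibitor Serpinf2 by -0.049, and Hrg, a plasminogen-binding plasma protein, by 0.19.

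The other coagulation and fibrinolysis genes, 26 in a fixed list with 19 tested, had 9 lower and 10 higher values in KO (median 0.023), and none passed the test. Plaur, the urokinase receptor, stood at 46.0 and 43.0 FPKM in WT against 67.7 and 68.2 FPKM in KO (0.60, SE 0.095, unadjusted p = 0.000781, adjusted p = 0.470 by limma). Serpine2 (0.79) and F3, tissue factor (0.51), had overlapping libraries. Of the enzymes that carboxylate the vitamin K-dependent proteins and recycle the vitamin, Ggcx differed by -0.13 and Vkorc1 by -0.059.

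Of 16 regulators of liver secreted proteins, 15 were tested, 13 with lower (beside 50.3% of all genes) and 2 with higher values in KO (median -0.19). None passed the test. The genotypes did not overlap for 5 of them (beside 38.1% of all genes), 3 with KO lower (beside 19.8%) and 2 with KO higher (beside 18.3%). Hnf4a, a nuclear receptor that drives many hepatocyte genes, stood at 90.4 and 95.8 FPKM in WT against 64.9 and 59.5 FPKM in KO (log2 difference -0.58, SE 0.10, unadjusted p = 0.00134, adjusted p = 0.470 by limma). Its libraries differed little within each genotype. Cebpd (-0.32), Nr1h4 (-0.28) and Cebpb (-0.26) were the next in size.

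Complement and coagulation genes could not be separated by their differences. The median difference between KO and WT was -0.097 for complement and -0.052 for coagulation, 0.046 apart, and this order turned without WT 2 and without KO 1. Lower values in KO were found for 15 of 21 complement and 15 of 23 coagulation genes. Between the libraries of a genotype both sets moved alike: the medians of WT 2 minus WT 1 were 0.20 and 0.21, and those of KO 2 minus KO 1 were 0.42 and 0.36. Summed FPKM of the complement genes was 8201 and 8879 in WT and 7821 and 9250 in KO, so its highest and lowest values were both from KO. Summed FPKM of the coagulation genes was 5131 and 6748 in WT and 4512 and 5709 in KO, with WT 2 highest. Of the 1616 FPKM by which WT 2 exceeded WT 1 there, the fibrinogen chains held 1166. Without the 3 chains the coagulation genes summed to 3871 and 4321 FPKM in WT against 3508 and 4286 FPKM in KO, and their median genotype difference was -0.045.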

How the data were processed

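The authors deposited 1 table with a value per gene and library, read here as FPKM from the tools named and the values, since no column states the unit. Build mm10 and the tools STAR (2.5.0), Cuffdiff (2.2.1) and Cufflinks come from the submitters' processing notes. The annotation and the use of strand in counting, not given in the sources used here, leave overlapping genes uncertain, although the TruSeq kit marks strand, per the labels' protocols. Of 22079 identifiers, 21984 matched GENCODE M21. Whole fragments could not be recovered.

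Values were used as log2(FPKM + 1), which understates changes of low genes, and genes averaging 1 FPKM or more were fitted with limma 3.58.1 in R 4.3.3 (lmFit, eBayes with trend, genotype only, two-sided, Benjamini-Hochberg over 10407 genes, threshold 0.05). SDs of 2 libraries say little, so both values are printed. An exact permutation test of 2 against 2 cannot go below 0.333. On simulated data with 200 of 10407 genes changed, the fit recovered 1.64%, 57.8% and 94.5% of genes changed by 0.5, 1 and 2 (log2). The simulated spread was drawn around the spread that limma fitted over all genes at each gene's level, and not taken from the members. Motif matches used 250 bases before RefSeq starts.

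Members and lists were chosen with earlier results of these data known. Every member is given with its difference. Library values are given for the 12 lowest p-values, the most abundant gene of each role, the 5 with the largest differences within genotypes and members named for a comparison. From each further list, up to 4 genes with the largest difference are named, except that some are not reported here, with a few added after their values were seen (Ggcx, Vkorc1, Pecam1, Cdh5, Marco, Cd5l). Serping1, Vtn and Clu act in more than 1 cascade and were counted with complement. Alternatives were another pseudocount (0.1), filter (none, or a mean of 5 FPKM), rescaling, a replicate block, genes listed at 0 left out, and each library left out.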

Additional observations from a re-analysis of the deposited data

How the results depend on the processing

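No member passed limma's threshold under any of the 11 alternatives (lowest adjusted p = 0.216). Over all genes, limma called 0 to 8 genes when each library was left out: 8 without WT 1, 5 without KO 1 and 0 without WT 2 or KO 2. The number of members with an unadjusted p under 0.05, 1 with all libraries, ran from 1 to 12 with a library left out: 5 without WT 1 (beside 7.56% of all genes), 1 without WT 2 (3.06%), 6 without KO 1, of which 5 were higher in KO (7.82%), and 12 without KO 2, all lower (11.8%). After rescaling to a common total, which includes Alb at its listed 0 in WT 2, it was 4, all lower (beside 6.73%). On that scale 9 members had genotypes without overlap (6 as deposited), 8 of them lower. With the replicate number as a block, members with an unadjusted p under 0.05 numbered 11, all lower, or 25.0% beside 10.1% of all genes. Their lowest adjusted p in that fit was 0.223 by limma, and 0 genes were called. The labels do not state what the replicate number pairs. Across 10407 genes, which are not independent, WT 2 minus WT 1 correlated with KO 2 minus KO 1 at 0.15, with Alb at its listed 0 included. Over the members the correlation was 0.34 (0.25 for complement, 0.42 for coagulation). With a library left out, the difference between the complement and coagulation medians (complement minus coagulation) ran from -0.060 to 0.063. The cause was not tested. For 11 members the sign held under all alternatives, but the difference ranged, with a library left out, over Masp1 -0.47 to -0.090, C4b -0.56 to -0.13, Cfb -0.33 to -0.20, Clu 0.10 to 0.21, Fga -1.19 to -0.18, Fgb -0.998 to -0.086, F2 -0.33 to -0.017, F7 -0.44 to -0.063, F10 -0.62 to -0.038, F11 -0.70 to -0.18 and Cpb2 -0.49 to -0.37. For 33 it changed with a library left out, over these ranges of log2 difference: C1ra -0.31 to 0.11, C1s1 -0.29 to 0.094, Masp2 -0.19 to 0.18, Mbl1 -0.47 to 0.17, Mbl2 -0.21 to 0.32, C2 -0.38 to 0.11, C3 -0.23 to 0.12, Hc -0.21 to 0.16, C6 -0.14 to 0.79, C8a -0.20 to 0.40, C8b -0.61 to 0.099, C8g -0.15 to 0.15, C9 -0.75 to 0.051, Cfi -0.22 to 0.16, C4bp -0.049 to 0.29, Serping1 -0.44 to 0.046, Vtn -0.41 to 0.061, Fgg -0.83 to 0.062, F13b -0.22 to 0.30, F9 -0.42 to 0.11, Proc -0.18 to 0.15, Pros1 -0.018 to 0.26, Proz -0.12 to 0.65, F5 -0.080 to 0.33, F12 -0.24 to 0.084, Klkb1 -0.019 to 0.39, Kng1 -0.10 to 0.021, Kng2 -0.12 to 0.020, Serpinc1 -0.13 to 0.20, Serpind1 -0.074 to 0.098, Serpinf2 -0.14 to 0.044, Plg -0.41 to 0.19, Hrg -0.22 to 0.61. C8g also changed sign with a common total (-0.00076). A fit without 1 library leaves 1 library in a genotype, assumed to vary like the other. Overlap of libraries was not recounted with a library left out, and values of low genes are limited by depth, which is known only roughly.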
